A study of Homo sapiens with 4 samples.

Results

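The members described here were UNG, which encodes the uracil DNA glycosylase, and the 7 APOBEC3 cytidine deaminase genes APOBEC3A, APOBEC3B, APOBEC3C, APOBEC3D, APOBEC3F, APOBEC3G and APOBEC3H. They were chosen by symbol, make up 8 of the 25066 genes in the deposited table, and were found in it once each. They were measured by RNA sequencing in NUDUL1, a human diffuse large B cell lymphoma line of the germinal center type. The line came from a single-cell clone with doxycycline-inducible Cas9, was transduced with the Gα13-coupled thromboxane receptor Tbxa2r, and was infected with either a control sgRNA or 1 sgRNA against GNA13, the gene for Gα13. Both genotypes received the thromboxane analog U46619 at 10 nM for 24 h, with 2 libraries per genotype. There were no untreated cells among the libraries used, so each comparison is between the libraries labelled GNA13-deficient and those labelled control, both under receptor stimulation. The labels speak of duplicate treatments and name no separate transductions. The p values therefore rest on the spread between duplicates, which the test used here draws in part from all genes tested. They do not measure the spread between separate transductions.

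APOBEC3 enzymes convert cytosine to uracil in single-stranded DNA and restrict retroviruses and mobile elements. APOBEC3A and APOBEC3B are also known as sources of cytosine mutations in tumor genomes. UNG removes uracil from DNA and so starts base excision repair, and in germinal center B cells it acts on the uracils left by hypermutation and class switching. The APOBEC3 genes lie side by side on chromosome 22 (GRCh37, the same assembly as hg19), from 39348746, the start of APOBEC3A, to 39500072, the end of APOBEC3H, all on the plus strand. UNG lies on chromosome 12 from 109535402 to 109564530, also on the plus strand. By the coding length of the reference transcript, APOBEC3A, APOBEC3C and APOBEC3H are the short members, with 199, 190 and 183 codons, and each has a lone deaminase domain. APOBEC3B, APOBEC3D, APOBEC3F and APOBEC3G have 382, 386, 373 and 384 codons and carry a pair of such domains.

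Promoters from RefSeq (build GRCh38.p14, 250 bases before to 50 after a transcript start) were found for UNG and APOBEC3H. APOBEC3A, APOBEC3B, APOBEC3C, APOBEC3D, APOBEC3F and APOBEC3G had no entry. Both UNG starts are shown because UNG is the member with the highest level and the gene-level values below do not separate its transcripts, which encode a nuclear and a mitochondrial form. Capitals mark a match to the E2F motif, searched on both strands as TTTCCCGC, TTTCGCGC, TTTGCCGC or TTTGGCGC.
UNG, first start, chr12:109097347-109097646, plus strand: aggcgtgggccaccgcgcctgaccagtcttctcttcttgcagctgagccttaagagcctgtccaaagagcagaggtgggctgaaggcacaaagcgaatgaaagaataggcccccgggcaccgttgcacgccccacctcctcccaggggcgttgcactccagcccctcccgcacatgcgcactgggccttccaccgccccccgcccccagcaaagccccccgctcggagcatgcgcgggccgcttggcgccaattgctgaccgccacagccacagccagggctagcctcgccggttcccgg
UNG, next start, chr12:109097922-109098221, plus strand: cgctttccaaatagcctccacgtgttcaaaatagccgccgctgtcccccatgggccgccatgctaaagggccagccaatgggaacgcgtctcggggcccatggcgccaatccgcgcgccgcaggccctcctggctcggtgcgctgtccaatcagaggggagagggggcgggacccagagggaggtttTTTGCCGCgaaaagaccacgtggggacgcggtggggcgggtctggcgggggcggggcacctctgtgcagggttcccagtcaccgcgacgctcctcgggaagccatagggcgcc
The first window held no match to these letters and the next held 1, TTTGCCGC, which began 63 bases before the transcript start. The APOBEC3H promoter, which is not printed, held no match. Of 35116 promoters of this length in the table, 3.31% held at least 1 match. A match is a run of letters and was not tested for binding.

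The targeted gene was examined first. GNA13 (Entrez 10672) had a deposited log2 value of 12.46 in control replicate 1, 12.45 in control replicate 2, and 13.10 and 13.11 in those labelled GNA13-deficient. Its mRNA was therefore higher, by 0.65 ± 0.05 (standard error; adjusted p = 0.00214, limma), in the libraries whose label names its loss, and all directions below rest on the labels. Mapped reads per library ranged from 29209544 to 31537955. Of 16945 genes tested by limma, 2218 were called higher and 2819 lower at an adjusted p under 0.05, or 29.7% in either direction and 13.1% higher. With each library centred on its median, 69.1% of the calls were higher, against 44% as deposited. The B cell markers MS4A1, CD79A, CD79B, PAX5 and CD22 were expressed in every library. Of 6 markers of T and NK cells, 3 were listed at 0 in every library and 5 stayed under 3 reads, with summed normalised reads of 6.11 to 6.89 in control and 6.45 to 11.3 in libraries labelled GNA13-deficient. Of 7 myeloid markers, 5 stayed under 3 reads, and the summed level went from 99.4 to 101 down to 22.6 to 25.7, mostly LYZ, the lysozyme gene, which fell by 2.53 ± 0.34 (adjusted p = 0.00759). FCGR3A, S100A8 and S100A9 were listed at 0 in every library. The part of this shift in the results below was not tested. Of 5 germinal center markers, MME was at 14.08, 14.00, 14.04 and 13.99, and SERPINA9 was listed at 0 in every library. S1PR2, with 26 to 45 reads per library, and MYBL1, with 44 to 81, were far lower than MME. BCL6, the germinal center repressor, fell by 2.49 ± 0.10 (adjusted p = 0.000850).

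APOBEC3B had the largest difference of the members, at about 5-fold more transcript in libraries labelled GNA13-deficient. UNG and the members APOBEC3C, APOBEC3F and APOBEC3G were higher by 1.2-fold to 1.47-fold. APOBEC3D did not pass the test, and APOBEC3A and APOBEC3H were at or near 0 reads. Thus, of the 8 members, 6 were tested, and 5 of these were called higher and none lower, against 13.1% of all genes tested called higher. The members were chosen with earlier results of these data known, so the count is no independent evidence. The median difference over the 6 members tested was 0.39 on the log2 scale, against -0.02 over all genes tested. In the same 5 members each library labelled GNA13-deficient was higher than each control library, a pattern that 31.3% of all genes tested showed. In bulk RNA, a change in the number of cells that express a gene cannot be told apart from a change in RNA per cell.

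**Figure D1:**
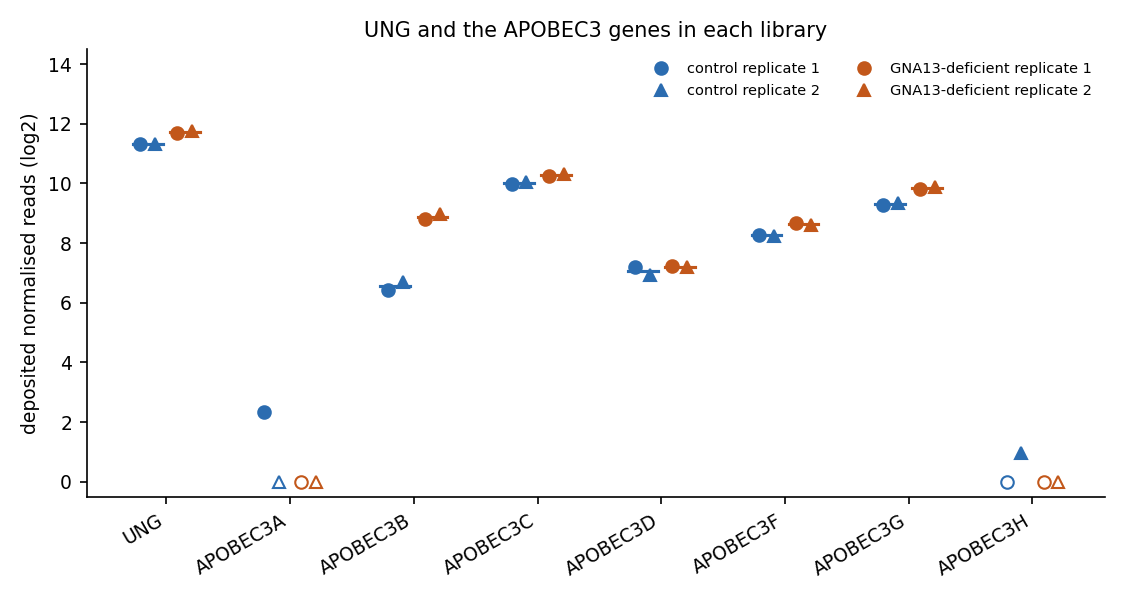
Deposited normalised reads (log2, vertical axis) of the 8 members in each of the 4 libraries, with bars for the mean of the 2 libraries of a genotype where the gene was tested and open symbols where a gene is listed at 0. APOBEC3B stands at 6.42 and 6.71 in control and at 8.79 and 8.97 in libraries labelled GNA13-deficient, while APOBEC3A and APOBEC3H lie at or near 0.

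APOBEC3B (Entrez 9582) is a nuclear deaminase that can act on the cell's own chromosomal DNA. It had 84 and 106 reads in the control libraries and 432 and 467 in libraries labelled GNA13-deficient. Its deposited log2 values were 6.42 and 6.71 in control and 8.79 and 8.97 in the others, so the lowest library of one genotype lay well above the highest of the other. The log2 difference was 2.32 (95% interval 1.92 to 2.73), a fold of 5.0 (3.77 to 6.62), with an adjusted p of 0.00169 by limma. Ranked by signed difference, so that falls of any size come after all rises, it was the 66th highest of the 16945 genes tested and the 58th of the 2218 called higher. With 1 library left out at a time it stayed between 2.18 and 2.47.

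Several APOBEC3 genes are near copies of each other, which bears on how reads are assigned. Of all windows of 50 bases in the APOBEC3B transcripts, 26.9% were also found in a transcript of another gene, most often APOBEC3A (14.1%). For windows of 150 bases this was 5.72%. The labels give 50 cycles per read and the study's methods longer reads, hence both window lengths. How the counting treated reads with several matches is not given in the sources used here. In addition, 244 exon bases of APOBEC3B are overlapped on the other strand by the noncoding gene APOBEC3B-AS1. The kit keeps the strand, but whether the counting used it is not given, so reads from that stretch cannot be told apart.

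APOBEC3G (Entrez 60489), known for its packaging into HIV particles, had log2 values of 9.26 and 9.34 in control and 9.82 and 9.90 in libraries labelled GNA13-deficient, on 604 to 887 reads. The genotypes did not overlap, and the difference was 0.55 ± 0.07 (standard error; adjusted p = 0.00701). APOBEC3F (Entrez 200316), another antiviral deaminase, was at 8.26 and 8.25 in control and at 8.67 and 8.62 in the others. It rose by 0.39 ± 0.09 (adjusted p = 0.0312), which was again larger than the spread between duplicates. For APOBEC3G and APOBEC3F, 5.76% and 12% of windows of 50 bases were shared with another gene.

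APOBEC3C (Entrez 27350), a short member that restricts mobile elements, had the most reads of the family. Its log2 values were 9.98 and 10.06 in control and 10.25 and 10.31 in libraries labelled GNA13-deficient, without overlap. The difference was the smallest of those called, 0.26 ± 0.06 (adjusted p = 0.0373), and only 1.21% of its windows of 50 bases were shared. The call was lost without the filter on low values (adjusted p = 0.0970) and without the variance trend (0.131).

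APOBEC3D (Entrez 140564), the remaining antiviral member with a pair of domains, was at 7.21 and 6.93 in control and at 7.23 and 7.20 in libraries labelled GNA13-deficient. Control replicate 1 lay level with the other genotype, so the genotypes overlapped. The difference was 0.15, with a 95% interval from -0.28 to 0.57 (adjusted p = 0.546), which leaves room for folds from 0.825 to 1.49. Without control replicate 1 the difference was 0.28 and without control replicate 2 it was 0.01, and under quantile normalization it was 0.51 (adjusted p = 0.0639). In GENCODE, 85.9% of its windows of 50 bases were shared, mostly (81.1%) with a readthrough gene that spans APOBEC3C and APOBEC3D.

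APOBEC3A (Entrez 200315), a deaminase best known from myeloid cells, had 5 reads in control replicate 1 and was listed at 0 in the other libraries. APOBEC3H (Entrez 164668), an antiviral deaminase of the short kind, had 2 reads in control replicate 2 and was listed at 0 elsewhere. In control replicate 2 a listed 0 can also stand for 1 read. A count of 0 allows up to 3 reads, for counting error only. Neither gene had a value over 0 in 2 or more libraries, so neither was tested and no fold is given.

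UNG (Entrez 7374) was the most abundant member. Its log2 values were 11.33 and 11.34 in control and 11.70 and 11.76 in libraries labelled GNA13-deficient, on 2521 to 3244 reads. The duplicates lay much closer to each other than the genotypes did, and the difference was 0.40 (95% interval 0.26 to 0.54; adjusted p = 0.00705), a fold of 1.32. Only 0.213% of its windows of 50 bases were found in another gene.

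**Figure D2:**
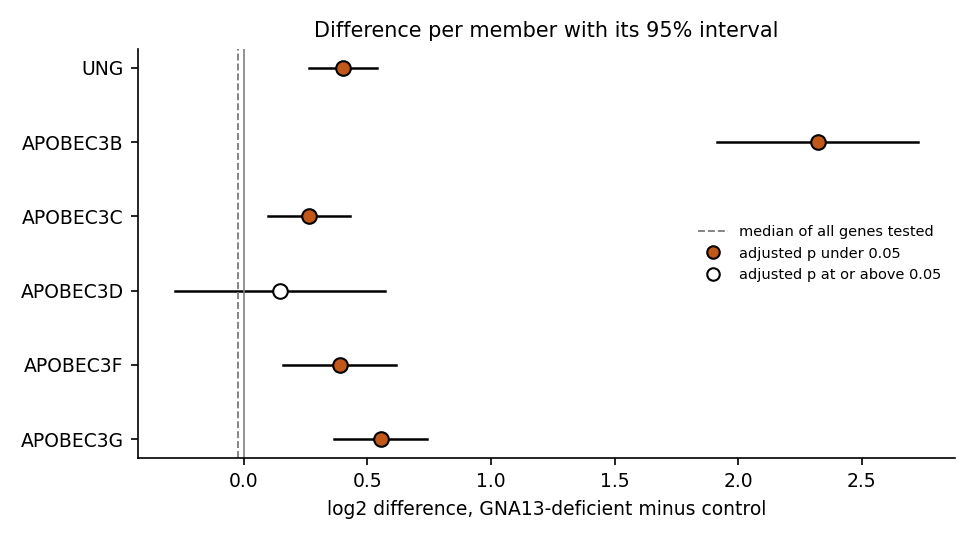
Log2 difference between genotypes (horizontal axis, libraries labelled GNA13-deficient minus control) for the 6 members tested, with 95% intervals from limma, filled where the adjusted p was under 0.05. APOBEC3B at 2.32 stands apart from the others, whose values run from 0.15 to 0.55, and the interval of APOBEC3D crosses 0.

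Calls among the members rested on all 4 libraries. When any 1 library was left out, limma on the other 3 called no member and no other gene, with 5257 to 5600 genes at an unadjusted p under 0.05. In these fits APOBEC3B had adjusted p values from 0.0708 to 0.0790. Without the variance trend, only APOBEC3B (adjusted p = 0.0138) and APOBEC3G (0.0431) were called. Centring of each library on its median shifted the differences of all genes tested by the same amount, and their median from -0.02 to 0.18. With this shift UNG stood at 0.61, APOBEC3C at 0.47 and APOBEC3F at 0.60.

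APOBEC3B was also set against other members of the same library, a ratio on which scaling between libraries has no bearing. The differences of these ratios follow from the member differences given above and are no separate evidence. Relative to APOBEC3G, APOBEC3B was lower by log2 values of -2.85 and -2.64 in control and of -1.02 and -0.93 in libraries labelled GNA13-deficient. The mean of this ratio differed by 1.77 between genotypes, and those relative to APOBEC3C, APOBEC3F and APOBEC3D by 2.06, 1.93 and 2.17. With 2 against 2 libraries the exact permutation test (two-sided) gave p = 0.333 for each of the 4 ratios, which is the smallest it can give.

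The make-up of the family shifted accordingly. APOBEC3B held 3.94% (95% Wilson interval 3.20 to 4.85) and 4.63% (3.85 to 5.58) of the APOBEC3 reads in the control libraries. In the libraries labelled GNA13-deficient it held 14.2% (13.0 to 15.5) and 15.4% (14.1 to 16.7), so that the intervals were far apart. The intervals cover counting error only. The share of APOBEC3C went from 46.6% and 47.4% to 39.1% and 38.9%. APOBEC3G, in contrast, held 28.3% and 28.9% in control and 28.9% and 29.2% in the others, with overlapping intervals. Summed over the family, normalised reads were 2168 and 2250 in control and 3121 and 3271 in libraries labelled GNA13-deficient, a ratio of means of 1.45. Without APOBEC3B the ratio was 1.29.

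**Figure D3:**
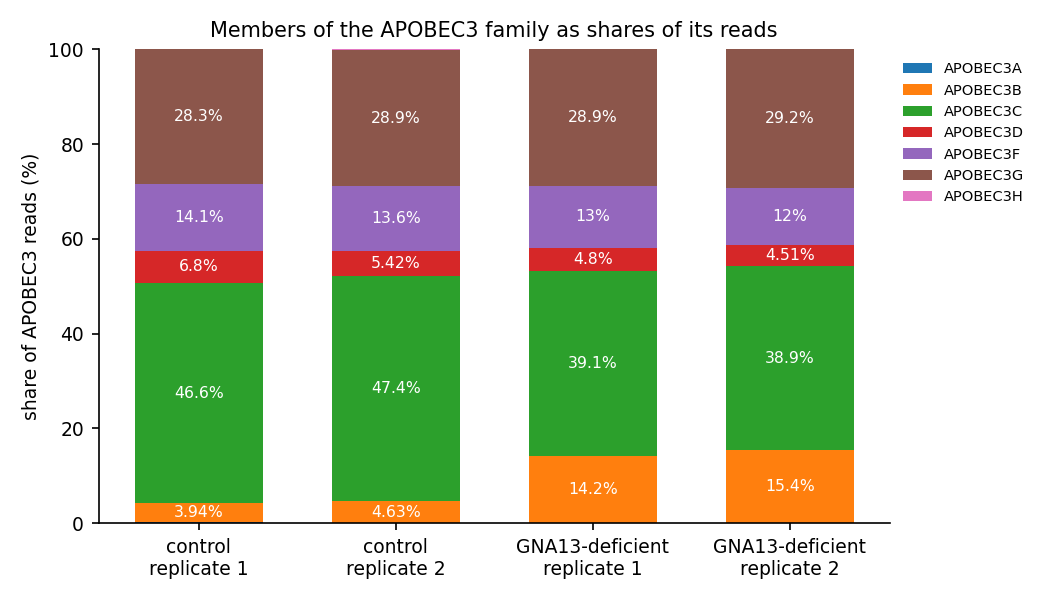
Share of all APOBEC3 reads (vertical axis, percent) that each member took in each of the 4 libraries. The APOBEC3B segment widens from 3.94% and 4.63% in control to 14.2% and 15.4% in libraries labelled GNA13-deficient, while that of APOBEC3C narrows.

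To compare levels between members, normalised reads were divided by the length of the reference transcript. Per kilobase, UNG was highest, at 1253 and 1265 in control and at 1626 and 1698 in libraries labelled GNA13-deficient. APOBEC3G followed with 393 and 415 in control, and APOBEC3C with 382 and 404, so that these neighbours overlapped there. In the libraries labelled GNA13-deficient APOBEC3G, at 576 and 610 per kilobase, lay above APOBEC3C, at 462 and 481. Next in control came APOBEC3F at 68.1 and 67.9, APOBEC3B at 53.7 and 65.6 and APOBEC3D at 58.7 and 48.5, of which the last pair overlapped. APOBEC3B moved up in this order, to 279 and 316 per kilobase in libraries labelled GNA13-deficient, above APOBEC3F (90.4 and 87.6) and APOBEC3D (59.6 and 58.6). The place of APOBEC3G depends on the length used: divided by the union of all annotated exons, its mean over the libraries was 145 per kilobase, against 432 for APOBEC3C and 150 for APOBEC3B.

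The neighbours of the cluster on chromosome 22 did not share one direction. Of 8 genes next to it, all of them tested, CBX6, a Polycomb group gene on the APOBEC3A side, rose by 0.25 ± 0.05 (adjusted p = 0.0256). SYNGR1, a synaptic vesicle gene on the APOBEC3H side, fell by 1.25 ± 0.20 (adjusted p = 0.0118). The other 6 were not called, so that the share called lay near the 29.7% of all genes, and among them was CBX7, the next protein-coding gene after APOBEC3H, which stood at -0.00 ± 0.19. NPTXR and PDGFB had fewer than 3 reads in every library, and their differences of 0.56 and 0.54 enter the median of the neighbours. The median difference of the 8 neighbours was -0.04, against 0.39 for the 5 APOBEC3 genes tested and -0.02 for all genes tested.

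**Figure D4:**
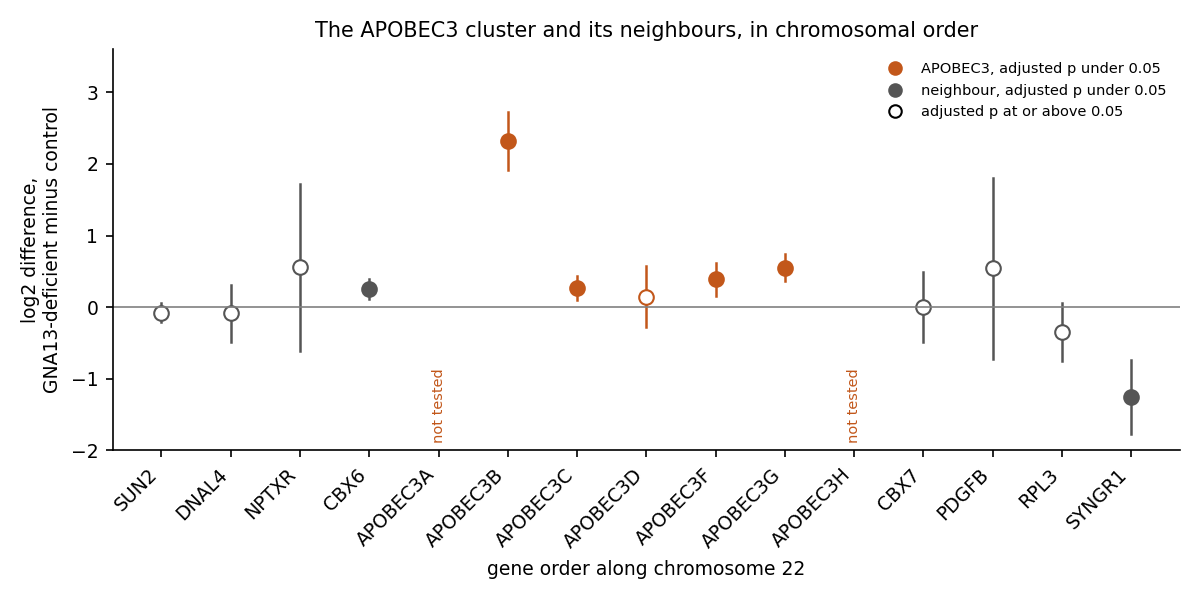
Log2 difference (vertical axis, libraries labelled GNA13-deficient minus control, with 95% intervals from limma) of the APOBEC3 genes and 8 neighbours, ordered along chromosome 22 from SUN2 to SYNGR1. The called APOBEC3 genes lie above 0 and APOBEC3B is the highest point, while the neighbours scatter to both sides of 0. Among the neighbours above 0, NPTXR and PDGFB had fewer than 3 reads in every library.

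Genes of the pathway that UNG opens were read from the same test. Of 14 genes for uracil and abasic site repair, 8 rose, none fell and 6 were not called, against 13.1% of all genes tested called higher and 29.7% called either way. Their median difference was 0.22, against -0.02 over all genes tested. LIG1, a DNA ligase of replication and repair, rose by 0.79 ± 0.06 (adjusted p = 0.00186). DUT, the dUTPase that keeps uracil out of new DNA, rose by 0.77 ± 0.06 (0.00233), and FEN1, the flap endonuclease, by 0.41 ± 0.07 (0.0156). These 3 genes also serve DNA replication. With quantile normalization 5 of the 14 were called, and without the filter on low values or without the variance trend 2. Of the other enzymes that remove uracil or its mispairs, TDG was at 0.19 ± 0.05 (adjusted p = 0.0477), MBD4 at 0.20 ± 0.06 (0.0601) and SMUG1 at -0.34 ± 0.12 (0.0975); these were singled out after their values were seen.

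Of 7 base excision glycosylases for other lesions, 3 rose and 1 fell, against 29.7% of all genes called either way. NEIL3 rose by 0.75 ± 0.14 (adjusted p = 0.0197) and MUTYH, which acts opposite oxidized guanine, by 0.52 ± 0.08 (0.0103). NEIL1, a glycosylase for oxidized bases, fell by 1.24 ± 0.18 (0.00916), from log2 values of 9.62 and 9.37 to 8.48 and 8.03. Of 15 genes for mismatch repair and translesion synthesis, which process uracils that escape UNG, 8 rose and 2 fell, against the same 29.7%, with a median of 0.25 (-0.02 over all genes tested). PCNA, the replication clamp, rose by 0.89 ± 0.06 (0.00175) and EXO1, an exonuclease, by 0.85 ± 0.05 (0.00155). SHPRH, a ubiquitin ligase for PCNA, fell by 1.68 ± 0.15 (0.00268).

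Of 15 genes for the response to switch breaks and for end joining, 4 rose, 1 fell and 10 were not called, a share close to the 29.7% of all genes called either way. ATM, the kinase that signals DNA breaks, fell by 1.5 ± 0.13 (adjusted p = 0.00246), whereas RIF1, which limits resection of breaks, rose by 0.63 ± 0.12 (0.0177). XRCC5, which encodes a Ku subunit, rose by 0.60 ± 0.07 (0.00473). Of 12 other nucleoside and RNA deaminases, 8 were tested, of which 1 rose and 2 fell, again not far from that 29.7%. ADARB2 rose by 1.05 ± 0.24 (0.0304), while the adenosine deaminase ADARB1 fell by 0.57 ± 0.11 (0.0180) and the dCMP deaminase DCTD by 0.44 ± 0.08 (0.0150). APOBEC1, APOBEC2, APOBEC4 and CDA had fewer than 3 reads in every library.

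Other antiviral restriction factors divided evenly: of 9 genes, 3 rose and 3 fell, against 29.7% of all genes called either way. MX2, an interferon-induced GTPase, fell by 1.38 ± 0.06 (adjusted p = 0.000962) and TRIM22 by 0.75 ± 0.06 (0.00209). SAMHD1, which degrades deoxynucleotides, rose by 0.76 ± 0.07 (0.00324). The median of these 9 genes was 0.03. Calls in the smaller lists depended on the fit: without the filter on low values, 2 of the base excision glycosylases for other lesions, 1 of the end joining genes, 0 of the other deaminases and 1 of the chromosome 22 neighbours were called, and without the variance trend 1, 2, 0 and 1.

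**Figure D5:**
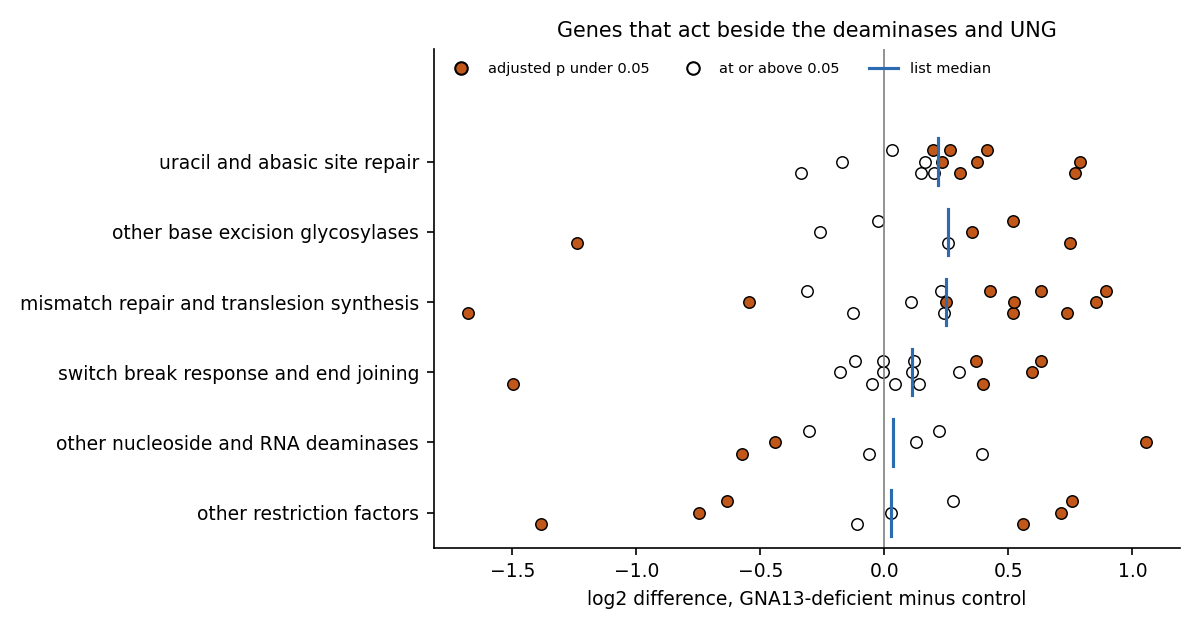
Log2 difference (horizontal axis, libraries labelled GNA13-deficient minus control) of each tested gene in 6 lists, filled where the adjusted p was under 0.05, with a bar at each list's median. Called genes lie on the right only in the uracil and abasic site repair list, whose median is 0.22, and on both sides in the other 5 lists.

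The genes whose pattern was most like that of APOBEC3B were CD82, MYL4 and LAT2. Likeness was the root mean square distance between centred log2 values over the 4 libraries, among 8473 genes at or above the median level. It was 0.085, 0.11 and 0.11 for these genes, which encode a tetraspanin, a myosin light chain and a signaling adaptor. Their differences were 2.31, 2.11 and 2.16. With 4 libraries this describes the size of the step between genotypes and little else.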

How the data were processed

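RNA from 4 NUDUL1 libraries was sequenced after a stranded poly(A) protocol. Alignment by the authors used STAR and hg19, and the deposited values are log2 normalised reads per gene. The submitters' processing notes also name HTSeq, and the annotation and normalization method are not given in the sources used here. A row of mapped read totals that shares these columns was used for depth only. Low values stepped in whole reads: every nonzero value up to 400 reads was whole, allowing 0.05 read plus rounding, and the recovered reads made up 99.9971% to 99.9999% of the totals. Libraries of a genotype differed by more than counting noise and were kept as replicates.

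Genes with a value over 0 in 2 or more libraries were compared with limma 3.58.1 in R 4.3.3 (lmFit, eBayes with a mean-variance trend, genotype as only term), with Benjamini-Hochberg adjustment across all 16945 such genes and calls at an adjusted p under 0.05. The fit was also run on simulated data, in which few genes differed and all genes had the same dispersion. That run does not bear on whether the calls made here hold. Transcript lengths, coordinates and windows came from GENCODE v44 lifted to GRCh37, and SUN2 was read under its older symbol. The alternatives tried were a median-level filter, no filter, pseudocounts of 1 and 10, quantile normalization, median centring, a replicate block, no variance trend, a robust prior, voom on recovered reads, and leaving out each library. The text names all members, GNA13, the marker genes, up to 3 called genes of each list by size of difference, and the 3 genes most like APOBEC3B. Members and lists were chosen with earlier results of these data known. Some genes are not reported here.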

Additional observations from a re-analysis of the deposited data

How the results depend on the processing

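The number of genes called was 1999 without the filter on low values and 2718 without the variance trend, against 5037; the other full-data alternatives gave 5161 to 6616. Of the 8 members, 2 were called without the variance trend, against 5. Of the genes in the 7 other lists, 38 were called, against 19 without the filter and 20 without the variance trend. The causes were not tested. With any 1 library left out, limma called 0 genes, 0 members and 0 list genes (5257 to 5600 genes at an unadjusted p under 0.05); these fits have 1 residual degree of freedom and assume that the lone library varies like the other genotype. GNA13 then ranged from 0.65 to 0.66 and was no longer called. No tested member changed sign under any alternative.

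No source says that libraries with the same replicate number are paired. Their deviations from the genotype means had a correlation of 0.453 over 8473 genes. A fit with the replicate block called 6616 genes and left each call among the members as it was. At this depth APOBEC3A and APOBEC3H were at or near the floor of 3 reads, so a difference between genotypes was not detectable for them.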
